A study of Mus musculus with 8 samples.

Results

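Cultures of the newborn mouse cerebellum that had been kept for 6 or 24 h after the start of a T3 experiment were compared with cultures kept for 16 or 48 h. All 8 arrays of the series took part, 4 on each side, and the grouping was selected on the measured signals of these same arrays, as the split of the 4 time points that parts them most clearly. It does not follow the order of the hours. Neuronal genes were high at 6 and 24 h, and genes of the choroid plexus, the endothelium and the interferon response were high at 16 and 48 h. As a list, genes of the meninges were lowest at 6 h and highest at 48 h, and many overlapped between 24 and 16 h. Because the signals themselves chose the grouping, differences between its sides are described below without a test.

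The cells were wild-type cerebellar cells of pups, pooled between animals, dissociated and kept for 48 h in serum-free medium that favours neurons over glia before the experiment began. The sample labels give the age of the pups as P4 to P7 and the methods as P1 to P4. Then 4 of the 8 cultures received T3 (tri-iodothyronine, the active form of thyroid hormone) at 0.1 µM, and the other 4 had the same changes of medium without it. At each of the 4 time points there was 1 treated and 1 untreated culture, prepared together from the same cell batch, with 1 array each, so that no condition had a replicate. A time point and its cell batch cannot be told apart, and the arrays of a time point are not independent.

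Granule neurons are the most numerous cells of the cerebellum. Their precursors divide in the external granular layer under the influence of Sonic hedgehog, leave the cell cycle, extend axons (the parallel fibres) that contact Purkinje cells, and migrate inwards. A dissociated cerebellum also brings astrocytes and Bergmann glia, oligodendrocyte precursors, microglia, vessels and, unless they are stripped off, the meninges and the choroid plexus, a secretory epithelium that makes cerebrospinal fluid. In total RNA of a mixed culture, fewer cells of a type and less RNA per cell cannot be told apart.

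Values are MAS5 signals, a linear measure of the brightness of a probe-set that had been scaled to the same trimmed mean of 100 on every array. Differences are on the log2 scale, after signals below 1 had been set to 1, and are given as the mean of the 4 arrays at 6 and 24 h minus the mean of the 4 at 16 and 48 h. They were fitted by least squares with treatment (T3 or untreated) as a covariate. On all arrays this equals the difference of the means, but it departs from it where a single array is left out. The probe-sets with the highest 40% of mean signals were kept (18015, covering 10194 genes), and where several probe-sets matched a gene the brightest stands for it. Pairs of signals name the untreated culture first and the T3 culture second.

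The first principal component of the 18015 kept probe-sets held 63.5% of the variance and placed the 4 arrays of 6 and 24 h on one side of 0 and the 4 arrays of 16 and 48 h on the other. The 6 h arrays stood farthest to one end (77.4 and 69.3) and the 48 h arrays farthest to the other (-76.6 and -68.4), with the 16 h arrays at -31.4 and -24.1. The 24 h arrays lay apart from each other, the untreated one at 44.5 and the T3 one at 9.16, near the middle. On the second component (16.9%) the 24 h arrays stood apart from the other 6, at -60.6 and -30.4 against 3.65 to 31.6. Arrays of the same time point correlated at r = 0.934 to 0.986 over probe-sets (4 pairs), arrays of different time points on one side at 0.902 to 0.952 (8 pairs) and arrays across the sides at 0.773 to 0.941 (16 pairs). These ranges overlap, so a few arrays of opposite sides resembled each other more than some arrays of one side. The 24 h T3 array correlated at 0.941 and 0.934 with the T3 and untreated arrays of 16 h, on the other side. It correlated at 0.934 with the untreated array of 24 h, and at 0.905 and 0.902 with the T3 and untreated arrays of 6 h. The 24 h untreated array followed the sides, at 0.904 and 0.908 with the 6 h arrays against 0.879 and 0.874 with those of 16 h.

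**Figure D1:**
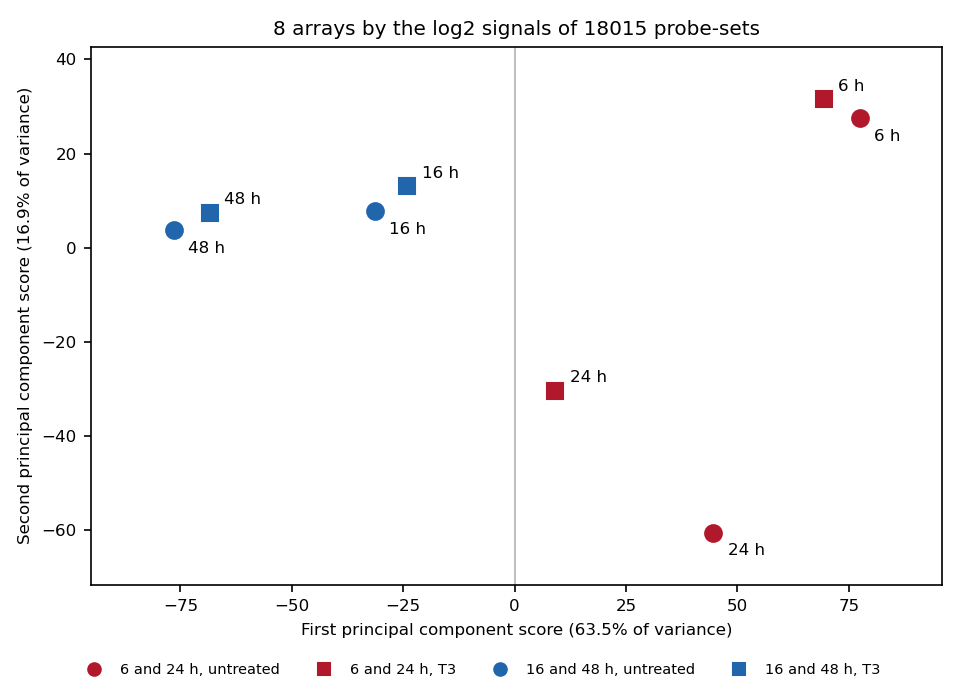
Scores of the 8 arrays on the first (x axis, 63.5% of the variance) and second (y axis, 16.9%) principal component of log2 signals. Colours mark the sides, squares T3 and circles untreated cultures. The grey line at 0 separates the arrays of 6 and 24 h from those of 16 and 48 h, and the 24 h arrays lie lowest on the y axis.

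Of the 10194 genes, 637 (6.25%) were higher at 6 and 24 h on all 4 arrays than on any of the 4 at 16 and 48 h with a mean difference of at least 2-fold, and 711 (6.97%) were lower in the same sense. Such genes are called separated below, and the counts of each list are to be read beside these shares. The median difference was 1.55 among the 637 and -1.43 among the 711, and 0.00 over all genes. At any fold, 1594 genes were higher and 1663 lower without overlap, and 6937 overlapped between the sides. Camsap1 lay just inside the 2-fold limit (1.0036 on the log2 scale) and Ttll1 just outside it (0.9996), and among the lower genes Ginm1 (-1.0003) was inside and Asl (-0.9971) outside. Probe-sets that had not been chosen to stand for their gene mostly pointed the same way, 326 of 342 for the higher genes (95.3%) and 308 of 314 for the lower genes (98.1%), with 191 and 211 separated themselves.

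The 2 time points joined on a side were not alike. Over the 711 lower genes the mean of the 24 h arrays was above that of the 6 h arrays for 618, by a median of 0.81, and the mean of the 48 h arrays was above that of the 16 h arrays for 561, by a median of 0.37. Among the 637 higher genes the 24 h mean was above the 6 h mean for 337, and the 48 h mean was above the 16 h mean for 60, with a median difference between 48 and 16 h of -0.66. The 48 h untreated array was the lowest of all 8 for 436 of the higher genes, and the 6 h untreated array was the lowest for 376 of the lower genes. Between 24 and 6 h, with 2 arrays each and no overlap, 753 genes were at least 2-fold higher and 343 lower at 24 h, and between 48 and 16 h 220 were higher and 282 lower at 48 h. Across the sides, by the same rule, 589 genes were higher and 394 lower at 24 h than at 16 h. Against 48 h the 24 h counts were 951 higher and 812 lower. At 6 h 725 were higher and 1198 lower than at 16 h, and 1295 and 1650 than at 48 h.

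The untreated array of 24 h had the highest signal of all 8 for 396 of the 637 higher genes. It also had the highest signals of 8 of the 14 kept astrocyte genes, with Aqp4 and Gfap far above the other 7 arrays, so counts are repeated without it. On the other 7 arrays 631 genes were separated as higher, 574 of them among the 637, and 807 as lower, 684 of them among the 711. Without the T3 array of 24 h the counts were 859 and 1097. The 5 kept reference genes had a median difference of 0.04, with Actb, cytoplasmic actin, between 3048 and 3419 on all arrays. They were not all level. Gusb was lower at 6 and 24 h without overlap (75.8 to 116 against 132 to 240, difference -0.93). Tbp was higher without overlap (104.5 to 142 against 70.5 to 102, 0.45). Hprt (-0.36) and Ywhaz (0.24) overlapped, and none of the 5 reached 2-fold. Xist, the RNA that silences an X chromosome in female cells, had signals of 15.2 and 11.6 after 6 h, 1037 and 836 after 24 h, then 538 and 651 after 16 h and 827 and 1035 after 48 h. It was near background on the arrays of 6 h and high on those of the other time points. The Y-linked Eif2s3y was at 418 and 463 after 6 h, 199.8 and 282 after 24 h, then 299.6 and 313 after 16 h and 181 and 226 after 48 h, present on all arrays and highest at 6 h. Whether the sexes of the pooled pups differed between the cell batches was not tested.

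Among the 15 higher genes with the largest differences, ranked after 32 had been added to each signal so that faint genes do not lead, were Cbln1, Cadps2, Cnr1, Slc17a6, Chgb and Ank3. Cbln1, a secreted organizer of the synapses between parallel fibres and Purkinje cells, had signals of 714 and 606 after 6 h, 1477 and 174 after 24 h, then 82.8 and 82.6 after 16 h and 65.7 and 44.9 after 48 h. The lowest of the first 4 values, 174 with T3 at 24 h, was about 2-fold above the highest of the last 4 (82.8), while the untreated 24 h culture reached 1477. Its difference was 3.11 (SD 1.28 at 6 and 24 h and 0.42 at 16 and 48 h, n = 4 each) and 2.76 without that array. Slc17a6, the vesicular glutamate transporter of immature granule cells and of projection neurons, was at 521 and 362 after 6 h, 303 and 188 after 24 h, then 73.4 and 81.5 after 16 h and 7.8 and 13.9 after 48 h. All 4 values of 6 and 24 h were at least 188, and the 16 h values in turn were above those of 48 h, for a difference of 3.50.

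Chgb, a granin of dense core vesicles, had signals of 726 and 664 after 6 h, 824 and 482 after 24 h, then 108 and 115 after 16 h and 25 and 100.1 after 48 h (difference 3.15). Ank3, the ankyrin that builds the axon initial segment, was at 1329.5 and 1185 after 6 h, 1231 and 483 after 24 h, then 119.6 and 178 after 16 h and 72.8 and 119.5 after 48 h (3.08). The 2 sides were far apart for both, with a single low value on each side, 25 for Chgb without T3 at 48 h and 483 for Ank3 with T3 at 24 h. Cnr1, the cannabinoid receptor of axon terminals, was at 185 and 125 after 6 h, 972 and 220.3 after 24 h, then 35.1 and 34 after 16 h and 13.1 and 17.2 after 48 h, highest without T3 at 24 h, and Cadps2, a priming factor for the release of dense core vesicles, showed the same peak with 854 and 719 after 6 h, 1947 and 669 after 24 h, then 251 and 245 after 16 h and 97.4 and 115 after 48 h. Tmem178 (difference 3.35), the transcription factors St18 (3.40) and Csrnp3 (3.40), the chromatin regulator Prdm8 (2.99), the stathmin Stmn4 (2.63), Sphkap, an anchor of protein kinase A (3.04), the phosphatase inhibitor Ppp1r14c (2.65), Rufy3, a regulator of axon growth (signals of 914 to 1230 at 6 and 24 h against 68.4 to 368 at 16 and 48 h), and the membrane metalloproteinase Mmp24 (3.36) complete the 15. Of these 15, 7 had their highest signal on the 24 h untreated array and 14 their lowest on the 48 h untreated one.

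**Figure D2:**
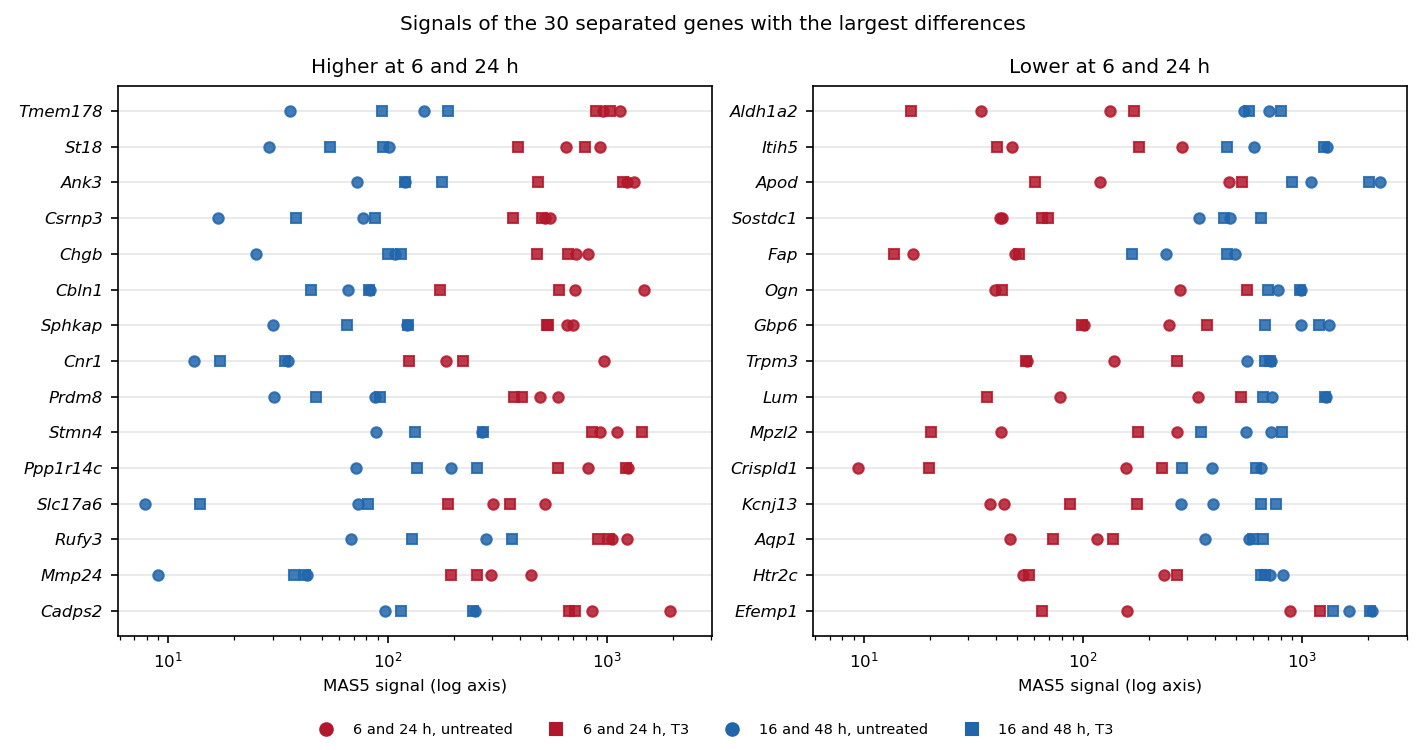
MAS5 signals (log axis) of the 15 genes with the largest differences in each direction, 8 points per gene and 1 array per point. Red marks 6 and 24 h, blue 16 and 48 h, squares T3 and circles untreated cultures. The colours do not mix in any row, as the choice of these genes requires, and the red points of the lower genes spread more widely than the blue.

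Genes of granule neurons were higher at 6 and 24 h as a list. Of 11 kept genes, all 11 had a positive difference, 8 were separated, and the median was 2.22, against 6.25% separated as higher and a median of 0.00 over all genes. Neurod1, a basic helix-loop-helix factor needed for granule cell differentiation, had signals of 2672 and 2566 after 6 h, 2578 and 1899 after 24 h, then 902 and 975 after 16 h and 266 and 423 after 48 h. The lowest value at 6 and 24 h (1899) was nearly 2-fold above the highest at 16 and 48 h (975), and the difference was 2.10 (SD 0.23 at 6 and 24 h and 0.90 at 16 and 48 h). Rbfox3, the splicing factor known as the neuronal marker NeuN, was at 1614 and 1682 after 6 h, 1216 and 1164 after 24 h, then 387 and 566 after 16 h and 142 and 265 after 48 h, also without overlap. Reln, the extracellular signal that granule cells secrete to position Purkinje cells, was at 2724 and 2390.5 after 6 h, 2609 and 1334 after 24 h, then 932 and 899 after 16 h and 163 and 401 after 48 h (difference 2.17). The potassium channel Kcnd2 (3.32), the adhesion proteins Astn1 (2.97) and Cntn2 (2.23) and the transcription factor Neurod2 (2.24) were separated too. Their signals at 16 and 48 h were low, at 12.6 to 43.2, 9.4 to 31.1, 15.1 to 34.2 and 26.9 to 55.2. With 32 added to each signal these differences were 2.28, 1.87, 1.39 and 1.58.

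Of the granule neuron list, 3 kept genes were not separated. Grin2c, a receptor subunit for NMDA that granule cells take up late, had signals of 343 and 326 after 6 h, 41 and 35.9 after 24 h, then 179 and 167 after 16 h and 20.5 and 35.3 after 48 h, so the 24 h values lay below those of 16 h and near those of 48 h. Chn2, a regulator of Rac, overlapped between the sides as well (1.46), and Tiam1, an activator of Rac, did not overlap but differed by less than 2-fold (0.38). Gabra6, Gabrd, Cbln3 and Slc17a7, which mark mature granule cells, had signals of at most 21.3 on any array and were below the filter. Without the untreated 24 h array the list again had 8 separated genes of 11, with a median of 2.07.

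Of 13 genes of the neuronal cytoskeleton and axon growth, 11 were separated as higher and none as lower (median 2.07, against 6.25% separated as higher over all genes). Tubb3, the neuronal tubulin that the Tuj1 antibody detects, had signals of 415 and 460.4 after 6 h, 1019.9 and 323 after 24 h, then 114 and 153 after 16 h and 49.3 and 45 after 48 h (difference 2.67). Dcx, the microtubule protein of migrating neurons, was at 1124 and 917 after 6 h, 2098 and 674 after 24 h, then 311 and 315 after 16 h and 111 and 153 after 48 h (2.45). In both genes the values of the 16 h cultures were above those at 48 h and below every value at 6 and 24 h. Stmn2 (2.39), Gap43 of growth cones (2.16), the dendritic Map2 (2.07) and the axonal Mapt, or tau (2.25), showed differences close to these, as did the neurofilament proteins Ina (2.39), Nefm (2.07) and Nefl (1.80). The exceptions were Dpysl3 (0.87) and the tubulin Tubb2a (0.47). Map1b (1.04) was not separated without the untreated 24 h array (0.94).

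**Figure D3:**
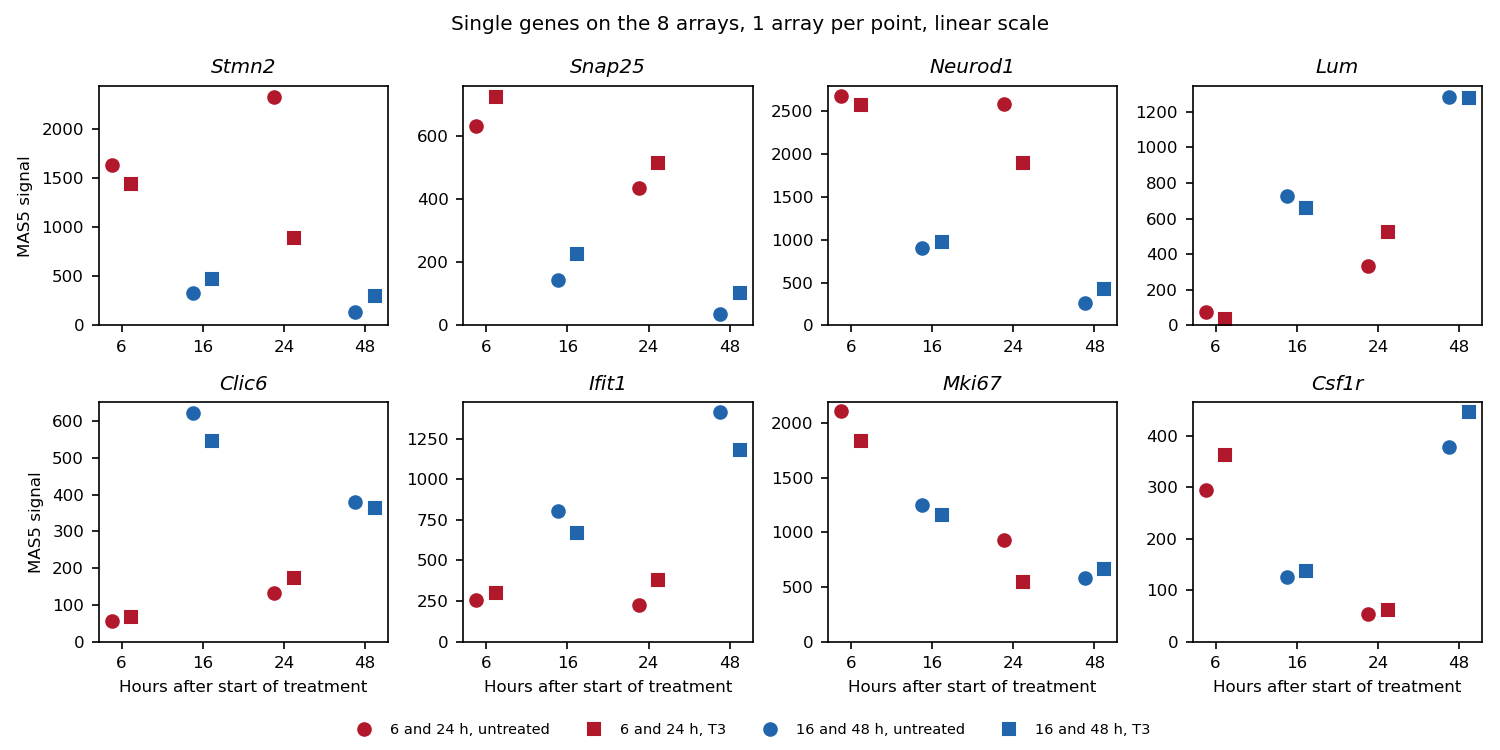
MAS5 signals (y axis, linear, from 0) of 8 genes by time point in hours (x axis, evenly spaced), 1 array per point. Red marks 6 and 24 h, blue 16 and 48 h, squares T3 and circles untreated cultures. Stmn2, Snap25 and Neurod1 are high at 6 and 24 h, Lum, Clic6 and Ifit1 are low there, and Mki67 and Csf1r do not follow the split.

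Genes of transmitter release had the same order. Of 14 kept genes of synaptic vesicles, 12 were separated as higher (median 1.72), against 6.25% over all genes. Without the untreated 24 h array 10 were separated, and Sv2a and Napb were under 2-fold. Snap25, a membrane protein of the fusion complex, had signals of 632 and 726 after 6 h, 437 and 517 after 24 h, then 146 and 228 after 16 h and 36.7 and 102 after 48 h (difference 2.42, SD 0.32 at 6 and 24 h and 1.12 at 16 and 48 h). It was the only kept gene of the list with a lower signal in the untreated than in the T3 culture of 24 h. Syt1, the calcium sensor of release, was at 570.5 and 452 after 6 h, 925 and 314 after 24 h, then 170.2 and 167 after 16 h and 52.8 and 82.1 after 48 h (2.31). Rims1 of the active zone (3.30), the vesicle proteins Sv2b (3.07) and Syp (2.44), the synapsins Syn1 and Syn2 (1.84) and the complexins Cplx1 (1.60) and Cplx2 (1.30) were separated. Rims1 (7.6 to 12.1), Sv2b (8.1 to 43.1) and Syp (24.2 to 85.9) were low at 16 and 48 h. With 32 added to each signal their differences were 1.65, 1.94 and 1.87. Vamp2 (0.58) and Rab3a (0.47) were not, and Rab3a had values of 632 to 686 at 6 and 24 h against 332 to 639.6 at 16 and 48 h.

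Few receptor genes passed the filter. Of 4 glutamate receptor genes, 3 were separated, the AMPA receptor subunits Gria2 (signals of 175 to 417 at 6 and 24 h against 21.4 to 106 at 16 and 48 h) and Gria4 (difference 1.97) and the kainate receptor subunit Grik2 (2.76). Grik5 was at 0.65 and overlapped. Gria4 (24 to 41.8) and Grik2 (5.9 to 24.7) were low at 16 and 48 h, and their differences were 1.27 and 1.37 with 32 added. Among 3 GABA receptor genes Gabra4 (2.66) and Gabbr1 (1.49) were separated, and Gabrb1 had signals of 50 and 36.1 after 6 h, 213 and 147 after 24 h, then 32.9 and 30.2 after 16 h and 17.4 and 44.1 after 48 h. The high arrays were those of 24 h alone, while the T3 culture of 6 h was below that of 48 h. Gabra4 had only 9.1 to 24.2 at 16 and 48 h, and its difference was 1.48 with 32 added.

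Markers of other cerebellar neurons were mostly higher at 6 and 24 h, with fewer genes and more exceptions. Purkinje cells make Pcp2, a modulator of G protein signalling, which had signals of 206 and 146 after 6 h, 180.1 and 49.9 after 24 h, then 34 and 30.1 after 16 h and 22.4 and 26.7 after 48 h (difference 2.20), and Calb1, a calcium buffer, was at 267 and 171 after 6 h, 371 and 149 after 24 h, then 53.8 and 62.8 after 16 h and 38.8 and 46 after 48 h (2.18). With Pcp4 these were 3 separated genes of 6 kept, and no value of the 3 overlapped. Car8 (1.70), which binds the IP3 receptor, was not separated, since the T3 culture of 24 h had 84.2 against 179 and 161 at 16 h. The transcription factors Foxp2 and Rora pointed the other way, Foxp2 with signals of 93.8 and 67.6 after 6 h, 212 and 165 after 24 h, then 237 and 181 after 16 h and 298 and 308 after 48 h (-1.03), which became separated as lower without the untreated 24 h array (-1.30). Of the GABAergic interneuron list 2 genes were kept, neither separated. Gad1, which makes GABA, was at 247 and 168 after 6 h, 467 and 49 after 24 h, then 47.8 and 68.8 after 16 h and 22.4 and 26.4 after 48 h, with the 24 h T3 culture among the values of 16 h, and Lhx1 was at 1.56, also overlapping. Of 3 kept genes of unipolar brush cells and nuclear neurons, Slc17a6 was the 1 separated. Eomes, a marker of unipolar brush cells, had 621 without T3 at 24 h and 28.4 to 203 on the other arrays, and Meis2 had signals of 10.6 and 15.4 after 6 h, 99.8 and 51.2 after 24 h, then 93.4 and 87.4 after 16 h and 103 and 97.2 after 48 h, lowest at 6 h.

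Few genes of precursors and dividing cells were separated. Of 13 kept genes of granule cell precursors 1 was separated, Pax6, with signals of 853 and 768 after 6 h, 739 and 425 after 24 h, then 309.7 and 402 after 16 h and 64.2 and 136 after 48 h (difference 1.89). With T3 its 16 and 24 h values, 402 and 425, were close to each other. Atoh1, the factor that specifies these precursors, was at 232 and 207 after 6 h, 270.1 and 32.8 after 24 h, then 136 and 123 after 16 h and 27.6 and 26.9 after 48 h, so that its T3 culture at 24 h was near the 48 h cultures. Meis1 (1.89), Barhl1 (1.69) and the hedgehog target Mycn (1.58) had large differences that overlapped in the same way, and the cyclins Ccnd2 (0.18) and Ccnd1 (-0.43) had small ones. The median of the list was 0.59 with 10 of 13 differences positive, and 1 separated gene of 13 is near the 6.25% separated as higher over all genes. Without the T3 array of 24 h, 5 of the 13 were separated as higher (median 0.65). None of 21 kept genes of cell division was separated (median 0.39). Mki67, a protein of dividing cells, had signals of 2115 and 1837 after 6 h, 933 and 546 after 24 h, then 1254 and 1158 after 16 h and 581 and 667 after 48 h, highest at 6 h with the 24 h T3 value the lowest of all. Without the 24 h arrays 12 of the 21 were separated as higher.

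**Figure D4:**
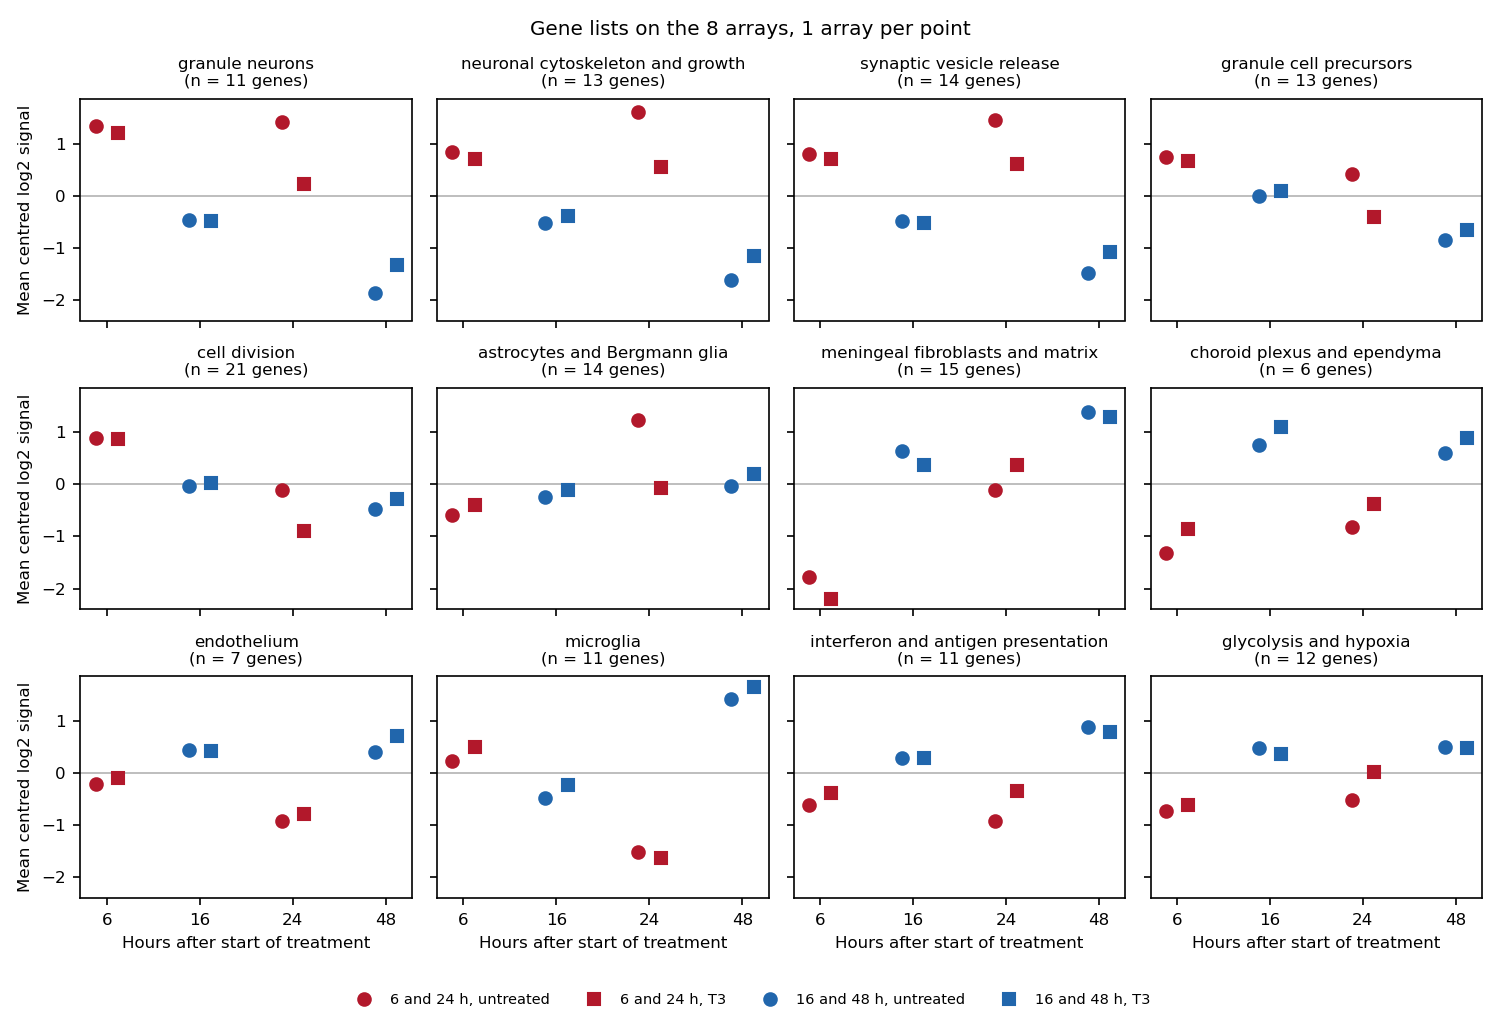
Mean centred log2 signal (y axis) over the kept members of 12 gene lists at each time point in hours (x axis, evenly spaced), 1 array per point, n = genes. Red marks 6 and 24 h, blue 16 and 48 h, squares T3 and circles untreated cultures. The neuronal lists are above 0 at 6 and 24 h and below it at 16 and 48 h, the choroid plexus list shows the opposite, and cell division, astrocytes and microglia follow other patterns.

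Glial genes were divided among themselves. Of 14 kept genes of astrocytes and Bergmann glia 3 were separated as higher and 1 as lower (median 0.35). Aqp4, the water channel of astrocyte endfeet, had signals of 63.6 and 76.8 after 6 h, 1054 and 45.8 after 24 h, then 21.4 and 16.8 after 16 h and 39.1 and 39.1 after 48 h, with the untreated 24 h culture more than 10 times any other. Its difference was 2.19 and 1.18 without that array. Slc1a2, a glutamate transporter of astrocytes (1.39), remained separated without it and the membrane protein Ttyh1 (1.33) did not (0.63). Gjb6, a connexin of astrocytes and of meningeal cells, was lower with signals of 13.5 and 32.1 after 6 h, 179.6 and 285 after 24 h, then 373 and 325 after 16 h and 700.5 and 669.6 after 48 h (-2.83). Without the untreated 24 h array Gja1, Hopx and Ndrg2 joined it, so that 2 genes were higher and 4 lower and the median turned to -0.20. On that array Gfap, the intermediate filament of astrocytes, had 216 against 11.9 to 28.2 on the other 7, and the 14 genes averaged, in centred log2 signal, 1.23 against -0.59 to 0.20.

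In the oligodendrocyte lineage the myelin protein Mbp was higher (1.26, and 0.93 without the untreated 24 h array, below 2-fold), with signals of 329 and 502 after 6 h, 826 and 276 after 24 h, then 156 and 213 after 16 h and 182 and 186 after 48 h. Cldn11, a tight junction protein of myelin that the arachnoid barrier also makes, was lower, at 42.9 and 15 after 6 h, 272 and 304 after 24 h, then 487 and 358 after 16 h and 671 and 522 after 48 h (difference -2.54). The precursor receptor Pdgfra (-0.73), also a gene of meningeal fibroblasts, the proteoglycan Cspg4 (-0.50), Cnp (0.27) and Olig1 (0.74) overlapped. Olig2, Sox10, Mog, Mag and Mobp were below the filter.

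All 15 kept genes of meningeal fibroblasts and matrix had negative differences, and 7 were separated as lower at 6 and 24 h (median -1.73, against 6.97% separated as lower over all genes). Aldh1a2, an enzyme of retinoic acid synthesis, had signals of 34.3 and 16.4 after 6 h, 133 and 171 after 24 h, then 542 and 575 after 16 h and 709.9 and 803 after 48 h (difference -3.44, SD 1.61 at 6 and 24 h and 0.26 at 16 and 48 h). The 6 h cultures stood near background, those of 24 h between, and all 4 at 16 and 48 h at 542 or more. Lum, a small proteoglycan of collagen fibrils, was at 78.4 and 36.6 after 6 h, 336 and 527 after 24 h, then 726 and 661 after 16 h and 1282 and 1277 after 48 h (-2.65). Foxc1, a transcription factor of the developing meninges (-2.37), the matrix proteins Fbln1 (-2.06) and Dcn (-1.63), Postn (-1.47) and the growth factor Igf2 (-1.35) were separated as well.

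The collagens were not separated, because their 24 h values reached those of 16 h. Col1a2, a chain of type I collagen, had signals of 249 and 166 after 6 h, 1591 and 2117 after 24 h, then 2056 and 1546 after 16 h and 2958 and 2909 after 48 h, and Col3a1 was at 486 and 265 after 6 h, 1799 and 2738 after 24 h, then 2754 and 2395 after 16 h and 3633 and 3706 after 48 h. Here the low arrays were those of 6 h alone. In mean centred log2 signal the list stood lowest on the 6 h arrays (-1.78 and -2.21), next on the 24 h arrays (-0.10 and 0.37), then on the 16 h arrays (0.63 and 0.38) and highest on the 48 h arrays (1.40 and 1.30). Without the 6 h arrays its median difference was -0.68 with 5 genes separated, and without the 24 h arrays -2.71 with 15.

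Of the 15 lower genes with the largest differences, Aldh1a2 and Lum belong to this list. The others included Apod, a lipocalin of fibroblasts, with signals of 119 and 60.8 after 6 h, 463 and 534 after 24 h, then 1101 and 902 after 16 h and 2266 and 2008 after 48 h (-2.82), the matrix proteins Ogn (-2.74) and Efemp1 (-2.45), Itih5, which binds hyaluronan (-3.04), the fibroblast protease Fap (-3.48), the secreted Crispld1 (-3.17) and the adhesion protein Mpzl2 (-2.86). Fap was at 16.8 and 13.7 after 6 h, 48.9 and 50.9 after 24 h, then 239 and 167 after 16 h and 493 and 454 after 48 h, so that its 24 h values stayed about 3-fold under the lowest at 16 h, whereas Efemp1, at 159 and 65.4 after 6 h, 877 and 1203 after 24 h, then 1639.5 and 1386 after 16 h and 2082 and 2049.5 after 48 h, had 24 h values close to those of 16 h.

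Genes of the choroid plexus gave the clearest division by sides among the lower lists. Of 6 kept genes 4 were separated (median -2.09, against 6.97% separated as lower over all genes). Clic6, a chloride channel protein of that epithelium, had signals of 55.6 and 66.3 after 6 h, 133 and 173 after 24 h, then 624 and 545 after 16 h and 380.3 and 364 after 48 h (difference -2.28). Folr1, the folate receptor that carries folate into the cerebrospinal fluid, was at 183 and 359.8 after 6 h, 260 and 371 after 24 h, then 841 and 1186 after 16 h and 988 and 1240.2 after 48 h (-1.90). In both, the 24 h values were closer on the log2 scale to those of 6 h than to those of 16 h. The water channel Aqp1 (-2.64) and the potassium channel Kcnj13, at 43.6 and 87.8 after 6 h, 37.6 and 176 after 24 h, then 394 and 759 after 16 h and 281 and 651 after 48 h (-2.77), were separated too. So were 3 more genes of this epithelium among the 15 lower genes, the serotonin receptor Htr2c (-2.60), the BMP antagonist Sostdc1 (-3.12) and the cation channel Trpm3 (-2.68). Sostdc1 had signals of 41.9 and 65.2 after 6 h, 42.6 and 69.3 after 24 h, then 471 and 440.5 after 16 h and 339 and 652 after 48 h, with 6 and 24 h nearly equal. Ttr, the thyroxine carrier of the choroid plexus, lay between 3415 and 4478 on all arrays (-0.13), in the range of the brightest probe-sets, and Otx2 overlapped (-0.40).

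Endothelial genes were lower at 6 and 24 h in 7 of 7 kept genes. Of these, 4 were separated (median -1.07, against 6.97% separated as lower over all genes). Kdr, the main VEGF receptor, had signals of 139.6 and 123 after 6 h, 72.3 and 75.6 after 24 h, then 307 and 255 after 16 h and 208 and 272 after 48 h (difference -1.39), and Cdh5, the cadherin of endothelial junctions, was at 45.3 and 48.8 after 6 h, 48.6 and 54.7 after 24 h, then 139.8 and 108 after 16 h and 151 and 139 after 48 h (-1.44). The lowest values were those of 24 h for Kdr, and for Cdh5 the 6 and 24 h values were alike. Emcn (-1.21) and Esam (-1.07, and -0.85 without the untreated 24 h array) were the other 2, while the tight junction protein Cldn5 overlapped, with 127 to 146 at 6 h and 112 to 134.5 at 16 and 48 h. None of 6 kept mural cell genes was separated (median -0.67). Acta2, smooth muscle actin, had signals of 298 and 284 after 6 h, 543 and 1202 after 24 h, then 294 and 318 after 16 h and 1208 and 1266 after 48 h, low at 6 and 16 h and high at 24 and 48 h.

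Microglia genes had a pattern of their own. All 11 kept genes had negative differences and 2 were separated, Tmem119 and Cd68 (median -1.15, against 6.97% separated as lower over all genes). Csf1r, the receptor that keeps microglia alive, had signals of 296 and 362 after 6 h, 53.9 and 62.1 after 24 h, then 126 and 137 after 16 h and 378 and 446 after 48 h, lowest at 24 h and highest at 48 h, with 6 h above 16 h. Cx3cr1, the fractalkine receptor, was at 57.7 and 95.9 after 6 h, 10.5 and 4.7 after 24 h, then 17.6 and 25.4 after 16 h and 111 and 166 after 48 h, and the complement gene C1qa at 69 and 83.9 after 6 h, 13.9 and 3.5 after 24 h, then 14.8 and 23.7 after 16 h and 119 and 185 after 48 h. The 6 h values of these genes lay above the 16 h values, against the direction of the median. Without the 24 h arrays the median turned to 0.17, and without the 6 h arrays it was -2.05 with 10 of 11 separated. Tmem119, which cells of the meninges can also express, was at 15.4 and 11.4 after 6 h, 47 and 50.9 after 24 h, then 131 and 86.1 after 16 h and 245 and 191 after 48 h, in the order of the meningeal genes. The 3 red blood cell genes with a probe-set stayed between 0.8 and 9.5, and none was kept.

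The levels of 3 of these lists are given as sums. The summed signal of the 16 meningeal genes with a probe-set was 2346 to 13514 at 6 and 24 h and 12372 to 22821 at 16 and 48 h, so that these ranges overlapped. That of the 15 granule neuron genes was 5251 to 9554 against 829.9 to 2962, and that of the 8 choroid plexus genes 4609 to 5110 against 6869 to 7954, both without overlap. Most of each choroid plexus sum came from Ttr, which had 3415 to 4478 and hardly differed between the sides (-0.13), so this sum understates the differences of the separated members. The part that the share of neurons, of meningeal cells or of choroid plexus cells had in the difference of any single gene was not tested.

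Genes of the interferon response and of antigen presentation were lower at 6 and 24 h in 11 of 11 kept genes. Of these, 7 were separated (median -1.06, against 6.97% separated as lower over all genes). Type I interferons act through the factor ISGF3, which binds a pair of GAAA repeats in the promoters of its targets, and many cell types respond. A search for 2 copies of GAAA 2 bases apart, on either strand, was added after the values had been seen, and it covered 250 bases before to 50 after each start site (RefSeq, GRCm38.p6). It matched 3.44% of all promoters, and 6 of the 10 promoters found for 9 of the 11 genes. B2m, which was not separated, also held a match, and none was found for the separated Irf7 and H2-K1. The 5 separated genes below are shown because they hold a match, so it is not a finding about the lower genes. The stretches around it are given with the match in capitals (GAAA or, on the other strand, TTTC).
Ifit1: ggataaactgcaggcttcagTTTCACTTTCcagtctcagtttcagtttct
Ifit3: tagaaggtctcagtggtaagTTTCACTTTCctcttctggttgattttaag
Rsad2: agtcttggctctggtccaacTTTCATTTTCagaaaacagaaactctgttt
Gbp2: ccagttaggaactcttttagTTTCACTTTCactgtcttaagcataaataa
Oas1a: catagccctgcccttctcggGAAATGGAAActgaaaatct
These lie at Ifit1 (chr19:34640765-34640814, plus strand), Ifit3 (chr19:34583353-34583402, plus strand), Rsad2 (chr12:26456543-26456592, minus strand), Gbp2 (chr3:142620584-142620633, plus strand) and Oas1a (chr5:120907526-120907565, minus strand), upstream of the start site and written along the strand of the gene. A match describes the letters only and is not evidence of binding. Among the 200 separated genes with the largest differences in each direction, the same search matched 3.93% of the promoters of higher genes (229 promoters) and 8.42% of those of lower genes (190 promoters).

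Ifit1, a protein that binds viral RNA, had signals of 255 and 301 after 6 h, 227 and 377 after 24 h, then 807 and 667 after 16 h and 1416 and 1182 after 48 h (difference -1.77, SD 0.32 at 6 and 24 h and 0.50 at 16 and 48 h). Ifit3 was at 244 and 326 after 6 h, 164 and 388 after 24 h, then 683 and 737 after 16 h and 1148 and 1333 after 48 h (-1.81), and both had their highest values at 48 h and their lowest without T3 at 24 h. Rsad2, or viperin (-1.62), the guanylate-binding protein Gbp2 (-1.57), the synthetase Oas1a (-1.14), the class I molecule H2-K1 (-1.03) and Irf7 (-1.06) were the other separated members. Irf7, the factor that amplifies the interferon response, had 309 with T3 at 6 h and 309.8 without T3 at 16 h, so that its sides nearly touched, and without the untreated 24 h array it was under 2-fold (-0.76). Usp18 (-1.01) and Mx2 (-0.35) overlapped, since their 6 h values reached or passed those of 16 h, while B2m (-0.51) and H2-D1 (-0.54) had small differences. Gbp6, a further guanylate-binding protein among the 15 lower genes, was at 101 and 98.6 after 6 h, 247 and 369 after 24 h, then 988 and 676 after 16 h and 1328 and 1193 after 48 h (-2.55).

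Genes of glycolysis and of the response to low oxygen were lower at 6 and 24 h in 12 of 12 kept genes. Of these, 4 were separated (median -0.77, against 6.97% separated as lower over all genes). Adm, the vasoactive peptide adrenomedullin, had signals of 93.4 and 123 after 6 h, 126 and 237 after 24 h, then 372 and 340.2 after 16 h and 662 and 896 after 48 h (difference -1.94). Slc2a1, the glucose transporter GLUT1, was at 364 and 450.2 after 6 h, 321 and 528 after 24 h, then 1006 and 899 after 16 h and 1111 and 811 after 48 h (-1.22), and the kinases Pdk1 (-1.44) and Pfkp (-1.22) were separated too. Pgk1 (-0.36) and Ldha (-0.51) had small differences, and Vegfa (-0.59) overlapped. The 13 kept genes of oxidative phosphorylation were all lower by small amounts (median -0.18, from -0.45 to -0.08), none separated.

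Several stress and metabolic lists had few or no separated genes. None was separated among 12 genes of the integrated and endoplasmic reticulum stress response (median 0.01), 8 p53 targets (-0.12), 9 antioxidant genes (-0.52), 9 lysosomal genes (-0.40) and 7 targets of actin signalling (-0.64). In cholesterol synthesis 1 of 13 was separated, Mvd (1.04), which was under 2-fold without the untreated 24 h array (0.92). The list paired other time points, with Idi1 at 473 and 423 after 6 h, 980.1 and 1045 after 24 h, then 749 and 876 after 16 h and 253 and 302 after 48 h, high at 24 and 16 h. Among 7 immediate early genes 1 was separated, Ier2, at 231 and 259 after 6 h, 209 and 506 after 24 h, then 101 and 142 after 16 h and 172 and 128 after 48 h (1.08), and Fos was at 1139.8 and 775 after 6 h, 529 and 1275 after 24 h, then 218 and 208 after 16 h and 267 and 566 after 48 h (1.61), highest with T3 at 24 h.

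The separated genes were also compared by a property of the genome, their length. The genomic span of a gene, from first to last annotated base, had a median of 25.6 kb over the 10180 kept genes found in the RefSeq table, 55.1 kb for 633 of the 637 higher genes and 28.0 kb for 710 of the 711 lower genes. Spans over 100 kb were found in 14.7% of all kept genes, 35.7% of the higher and 19.4% of the lower genes. This comparison was added after the values had been seen and is given without a test. Of the 200 separated genes with the largest differences in each direction, 156 higher genes (229 promoters) and 149 lower genes (190 promoters) had a promoter in the table. TATAAA before the start, on the strand of the gene, was found in 3.49% (8 promoters) for the higher and 7.37% (14) for the lower genes. The share was 7.59% of all promoters, which include those of genes not kept. The E-box letters CAGATG or CAGCTG, on either strand, were in 34.5% and 35.8%, against 30.6%. The CArG box was in 1.31% (3 promoters) and 0%, against 1.63%.

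**Figure D5:**
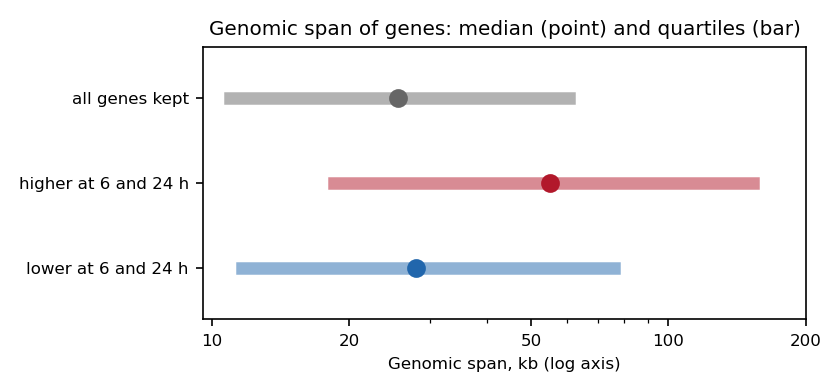
Genomic span in kb (x axis, log scale) of all kept genes and of the genes separated in each direction, with the median as a point and the quartiles as a bar. The median was 55.1 kb for genes higher at 6 and 24 h against 25.6 kb for all genes.

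Each side holds treated and untreated cultures in equal number, so the response to T3 could be tested across them. With the time point as a block (limma, 4 pairs), 0 of 18015 probe-sets (0%) passed an adjusted p of 0.05 for T3, with 985 at an unadjusted p under 0.05 and a smallest adjusted p of 0.154. That the T3 effect differed between the sides was tested on the 4 paired differences (limma), where 0 probe-sets (0%) passed, with 947 at an unadjusted p under 0.05 and a smallest adjusted p of 0.834. Dbp, a clock-controlled transcription factor, had T3 effects of 1.53, 1.39, 1.45 and 0.97 on the log2 scale at 6, 24, 16 and 48 h, with a mean of 1.33 (SE 0.12, limma adjusted p = 0.154). Klf9, a direct target of the T3 receptor, had effects of 1.34, 1.34, 0.86 and 0.60 and a mean of 1.04 (SE 0.13, limma adjusted p = 0.306), and its effect at 6 and 24 h exceeded that at 16 and 48 h by 0.61 (SE 0.14, limma adjusted p = 0.834). All 4 effects were positive in both genes, and in neither did the difference between the sides pass the threshold. These p-values measure the spread between these samples only.

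Of the T3 response list, 2 of 8 kept genes were separated by side, both lower at 6 and 24 h (against 6.97% separated as lower over all genes). Dio2, the deiodinase that makes T3 from thyroxine, had signals of 16.7 and 25 after 6 h, 27.6 and 23.9 after 24 h, then 53.1 and 38 after 16 h and 299 and 236 after 48 h (difference -2.25), high at 48 h alone. The guanylate-binding protein Gbp3 was at 276 and 319 after 6 h, 115 and 339 after 24 h, then 415 and 728 after 16 h and 534 and 1138 after 48 h (-1.43), with its T3 culture above the untreated one at all 4 time points. Kcnj13 of the choroid plexus had T3 effects of 1.01, 2.23, 0.95 and 1.21 at 6, 24, 16 and 48 h and a mean of 1.35 (SE 0.22, limma adjusted p = 0.779), positive in 4 of 4 pairs beside its 6.81-fold difference between the sides.

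The genes of the split differed between treated and untreated cultures mainly at 24 h. There the median T3 effect was -0.64 over the 637 higher genes and 0.36 over the 711 lower genes, against 0.03 over all genes. The medians were -0.14 and 0.13 after 6 h, 0.05 and -0.13 after 16 h, and 0.25 and -0.02 after 48 h. In the limma fit over the 4 pairs, 5 of the higher genes had a positive and 21 a negative T3 effect at an unadjusted p under 0.05, against 52 and 10 of the lower genes and 254 and 240 of all 10194 genes. None of these passed after adjustment. The genes were chosen on these same arrays and do not vary independently, so the counts are a description and not separate pieces of evidence for a direction of T3. With 1 culture per condition, the difference between the cultures of 24 h cannot be told apart from an effect of T3 at that time.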

How the data were processed

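Total RNA of 8 cerebellar cultures (1 culture and 1 array per condition) was amplified and hybridized by the authors to Affymetrix Mouse 430 2.0 arrays, and the deposited values are linear intensities, the MAS5 signals of GCOS scaled to a trimmed mean of 100 (array medians 14.8 to 17.7). The array number limits the precision. Here 64 control probe-sets were left out of 45101, which left 45037, of which 34945 had 1 gene symbol, 932 several and 9160 none. Signals below 1 were set to 1 and log2 was taken. Probe-sets at or above the 60th percentile of the mean (log2 4.95) were kept, and each gene was given by its brightest probe-set. Genes were named as the 15 in each direction with the largest differences after adding 32, and all lists were described by their counts and medians. The members and the lists were chosen with earlier results of these data known, and most lists had been used before on them. T3 was tested with limma 3.58.1 (R 4.3.3), with the time point as a block and a variance trend, and the difference between sides on the 4 paired differences, with Benjamini-Hochberg adjustment over 18015 probe-sets. The treated and untreated cultures of a time point pair because the methods state that they came from the same cell batch. Scripts were tested on simulated data. Summaries used Python 3.11.15, pandas 2.3.3, numpy 2.4.6 and matplotlib 3.10.9. Promoters and gene spans came from RefSeq tables of GRCm38.p6, matched by symbol.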

Additional observations from a re-analysis of the deposited data

Results flagged for a closer look

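Within the 4 arrays of a side, an array was marked where its distance to the nearest other exceeded the critical value of Dixon's test in relation to the range of the 4. Of 116 groups of 4 tested, 7 (6.03%) were marked. Chance marks about 1 in 20 where the 4 values are independent and of one kind. Arrays of a time point are not independent and each side joins different time points, so that rate cannot be set against this share. The 48 h untreated array stood apart at 16 and 48 h for the list of GABA receptors (mean centred log2 signal -1.682, the other 3 between -0.77 and -0.59), for antioxidant genes (0.4754 against 0.07 to 0.11), for Chgb (log2 signal 4.644 against 6.64 to 6.84) and for Mmp24 (3.17 against 5.23 to 5.42). The 48 h T3 array stood apart for endothelial genes (0.7201 against 0.40 to 0.46). At 6 and 24 h the 24 h T3 array stood apart for immediate early genes (0.9075 against -0.01 to 0.05) and for Ank3 (8.916 against 10.2 to 10.4).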

How the results depend on the processing

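The 637 higher and 711 lower genes kept their direction under every alternative in which they were tested. Their choice by arrays without overlap largely fixed this in advance, so it lends the split no support. The counts changed as follows. With 32 added to each signal 431 genes were higher and 441 lower, above the 75th percentile of signal 346 and 432, on untreated arrays alone 952 and 1174, and on T3 arrays alone 571 and 668. Leaving out 1 array at a time gave 559 to 859 higher and 599 to 1097 lower, the largest counts without the 24 h T3 array. Without the 16 h arrays 959 were higher and 1222 lower, and without those of 24 h 985 and 1393, whereas without those of 6 h there were 690 and 507 (571 and 388 of them among the full 637 and 711) and without those of 48 h 502 and 609. A 1.5-fold limit gave 1127 and 1157, and a 3-fold limit 307 and 252. Fewer arrays must be kept apart in these counts. Without the 24 h arrays the list median of microglia turned from -1.15 to 0.175, that of astrocytes from 0.35 to -0.25 and that of cholesterol synthesis from 0.12 to -0.31, and without the 6 h arrays that of cell division turned from 0.39 to -0.29, of mural cells from -0.67 to 0.10 and of the oligodendrocyte lineage from -0.12 to 0.23. The astrocyte median was also negative above the 75th percentile (-0.57), on T3 arrays alone (-0.22) and without the 24 h untreated array (-0.20), and that of mural cells was 0.03 without the 48 h arrays. Other lists whose median changed sign had full medians between -0.12 and 0.12. The T3 effect within pairs had 0 calls in every setting but one: without the 24 h arrays 2 probe-sets were higher, Dbp (1.32, SE 0.12) and Kcnj13 (1.06, SE 0.11), both at a limma adjusted p of 0.0484. Without the replicate block that pairs the cultures of a time point, there were again 0 calls, with 76 at an unadjusted p under 0.05 in place of 985. The difference of the T3 effect between sides had 1119 probe-sets higher and 1265 lower without the 6 h arrays, and 23 and 8 without those of 24 h, but 1 side then rests on a single pair assumed to vary like the other side, with 1 residual degree of freedom. The cause of these changes was not tested. With 1 culture per condition, signals near background and 1 probe-set per gene, small differences cannot be resolved.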
